A study of Mus musculus with 4 samples.

Results

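The box H/ACA small nucleolar RNAs are described here in mouse naive CD4 T cells with Btg1 and Btg2 deleted in the T cell lineage; BTG1 and BTG2 are 2 related proteins that promote shortening of mRNA poly(A) tails. They were taken as every gene whose GENCODE M21 symbol starts with Snora and whose gene type is snoRNA. The rule gave 42 genes of the 48858 genes summed from the files, on 20 chromosomes, with RNAs of 121 to 205 bases. The 42 genes carry 40 symbols, because Snora16a and Snora43 each have 2 annotations, and each gene has a single transcript. Estimated counts were present for 40 genes, and 34 passed the filter on low counts and were tested.

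Libraries of rRNA-depleted total RNA came from naive CD4 T cells sorted as TCRb+ CD4+ CD25- cells with high CD62L and low CD44. Both DKO libraries came from Btg1f/f Btg2f/f-CD4-Cre mice, in which Cre driven by Cd4 regulatory sequences deletes both floxed genes in the T cell lineage. Both WT libraries came from Btg1f/f Btg2f/f littermates, which carry the same floxed alleles without Cre. The labels speak of pairs of mice, do not give their age and do not tie a replicate number to a pair. With 2 libraries a group, p-values measure the spread between these libraries, and an exact two-sided permutation test cannot go below 0.3333.

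Box H/ACA snoRNAs fold into hairpins joined by a hinge, the H box, and end in a tail that holds the trinucleotide ACA a few bases before the 3′ end. Each assembles with dyskerin, Gar1, Nhp2 and Nop10, and the hairpin pockets pair with rRNA to direct conversion of uridine to pseudouridine. In mammals most are cut out of introns of host genes, many of which encode ribosomal proteins or serve as non-coding carriers, and they are trimmed to their ends rather than transcribed from promoters of their own.

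The RNAs that the results turn on are printed from the GENCODE M21 transcripts on GRCm38, 5′ to 3′, with the best-centred match to the H box (ANANNA, N being any base) and the terminal ACA in capitals. Snora7a, inside Rpl32 at chr6:115807975-115808114 on the minus strand, had the highest level per length. Snora61 (chr4:132310240-132310369), the longer annotation of Snora16a (chr4:132309464-132309600) and Snora44 (chr4:132309941-132310069) lie on the plus strand of 1 non-coding host, Snhg12. Snora44 has no ACA at its annotated end. Snora73b (chr4:132352322-132352526) and Snora73a (chr4:132352775-132352979), the longest RNAs, lie on the minus strand in Snhg3 and are 96.6% identical over 205 positions.
Snora7a: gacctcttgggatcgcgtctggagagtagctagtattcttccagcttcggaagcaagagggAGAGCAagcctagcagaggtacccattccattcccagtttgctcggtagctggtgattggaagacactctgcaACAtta
Snora61: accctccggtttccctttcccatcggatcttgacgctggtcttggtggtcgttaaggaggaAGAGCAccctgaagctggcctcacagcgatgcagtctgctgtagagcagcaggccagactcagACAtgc
Snora16a: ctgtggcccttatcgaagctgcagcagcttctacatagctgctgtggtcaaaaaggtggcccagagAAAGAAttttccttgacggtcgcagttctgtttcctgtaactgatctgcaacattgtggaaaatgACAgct
Snora44: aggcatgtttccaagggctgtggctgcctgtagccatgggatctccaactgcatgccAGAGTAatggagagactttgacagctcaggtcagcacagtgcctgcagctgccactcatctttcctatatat
Snora73b: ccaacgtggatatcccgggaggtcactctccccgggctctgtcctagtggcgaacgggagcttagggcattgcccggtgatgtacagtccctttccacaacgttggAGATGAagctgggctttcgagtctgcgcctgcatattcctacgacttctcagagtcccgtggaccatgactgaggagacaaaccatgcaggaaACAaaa
Snora73a: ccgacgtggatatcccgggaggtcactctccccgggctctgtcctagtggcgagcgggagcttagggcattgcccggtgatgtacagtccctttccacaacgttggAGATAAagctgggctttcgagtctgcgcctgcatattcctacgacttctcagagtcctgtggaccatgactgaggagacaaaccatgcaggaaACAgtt

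A second set shows the shortest RNA and a long RNA with no near copy. Snora26 (chr5:74093530-74093650, plus strand) lies in Dancr, and Snora23 (chr7:110046364-110046547, plus strand) in Ipo7.
Snora26: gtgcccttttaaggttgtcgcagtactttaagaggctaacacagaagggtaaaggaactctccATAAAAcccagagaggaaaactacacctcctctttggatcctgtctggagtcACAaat
Snora23: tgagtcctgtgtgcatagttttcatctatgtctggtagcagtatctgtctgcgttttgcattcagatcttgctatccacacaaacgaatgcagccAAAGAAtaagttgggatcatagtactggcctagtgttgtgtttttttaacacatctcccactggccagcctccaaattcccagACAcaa
An ACA exactly 3 bases before the end was found in 35 of the 42 Snora transcripts (83.3%), against 40 of 1820 other transcripts of 121 to 205 bases that are not snoRNAs (2.20%). An ACA within the last bases at a distance of at most 5 was found in 40 Snora transcripts and in 222 of the others. The looser ANANNA motif, searched on the sense strand between 35 and 65% of the length, was found in 39 Snora transcripts (92.9%) and in 904 of the others (49.7%). GC content ran from 33.3 to 64.1% with a median of 48.5%.

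Total estimated counts were 16567226 and 17827631 in the DKO libraries and 14970076 and 13889894 in the WT libraries, so that 3 counts, taken as a floor, equal 0.139 to 0.260 CPM, counts scaled to 1 common library size with TMM factors. Btg1 had 6.09 and 5.80 CPM in DKO against 532 and 472 CPM in WT, and Btg2 had 0.296 and 0.325 CPM in DKO against 93.4 and 92.5 CPM in WT. The 12 markers of naive CD4 T cells summed to 3960 and 3861 CPM in DKO and 3375 and 4044 CPM in WT, and the 3 NK cell markers to 0.331 CPM or less in every library. The B cell markers summed to 6.56 and 5.49 CPM in DKO against 4.94 and 7.69 CPM in WT, and the myeloid markers to 2.62 and 5.63 CPM in DKO against 5.05 and 3.99 CPM in WT, with overlap in both. Ncr1 was at 0 in all 4 libraries. The 3 regulatory T cell markers summed to 19.6 and 32.2 CPM in DKO against 8.03 and 9.12 CPM in WT, and each of the 3 was higher in both DKO libraries. The 2 CD8 T cell markers summed to 8.64 and 13.2 CPM in DKO against 7.22 and 7.56 CPM in WT, with Cd8a itself at 0.433 CPM or less. The 4 cycling-cell markers summed to 19.1 and 54.6 CPM in DKO against 12.7 and 11.6 CPM in WT. The part of these cells in the results on snoRNAs was not tested. In bulk samples, fewer cells of a type and less RNA per cell cannot be told apart.

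Snora RNA made up a smaller share of the DKO libraries. The 42 genes summed to 364 and 192.5 CPM in DKO against 638 and 1220 CPM in WT. Both DKO libraries lay below both WT libraries, yet the libraries of a genotype were far apart, with DKO replicate 1 above DKO replicate 2 by 0.92 and WT replicate 2 above WT replicate 1 by 0.93 on the log2 scale. The mean was 278 ± 121 CPM in DKO and 929 ± 411 CPM in WT (SD, n = 2 each), or 0.0302 ± 0.0098% and 0.0802 ± 0.0298% of all estimated counts. The log2 difference was -1.74 with a pooled SD of 0.655, and the exact two-sided permutation p was 0.3333, the smallest possible. The 5 genes with the most counts held 51.7% of the Snora counts, and without Snora74a the difference was -1.71. It was -1.27 without WT replicate 2, -1.28 without DKO replicate 2, and -2.20 without WT replicate 1 or without DKO replicate 1. Scaled to 5 RNA polymerase III transcripts in place of TMM, it was -0.80.

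The length of the sequenced fragments moved with these sums. The mean fragment length implied by the deposited effective lengths, over 6231 transcripts longer than 5000 bases, was 132.5 and 141.2 bases in the DKO libraries and 122.8 and 118.8 bases in the WT libraries. The library with the longest fragments, DKO replicate 2, had the lowest Snora sum, and the one with the shortest, WT replicate 2, had the highest. Fitting the counts with an offset for effective length moved the median log2 fold change of the tested Snora genes to -1.37, against -1.55 without the offset. Its part in the difference beyond that offset was not tested.

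**Figure D1:**
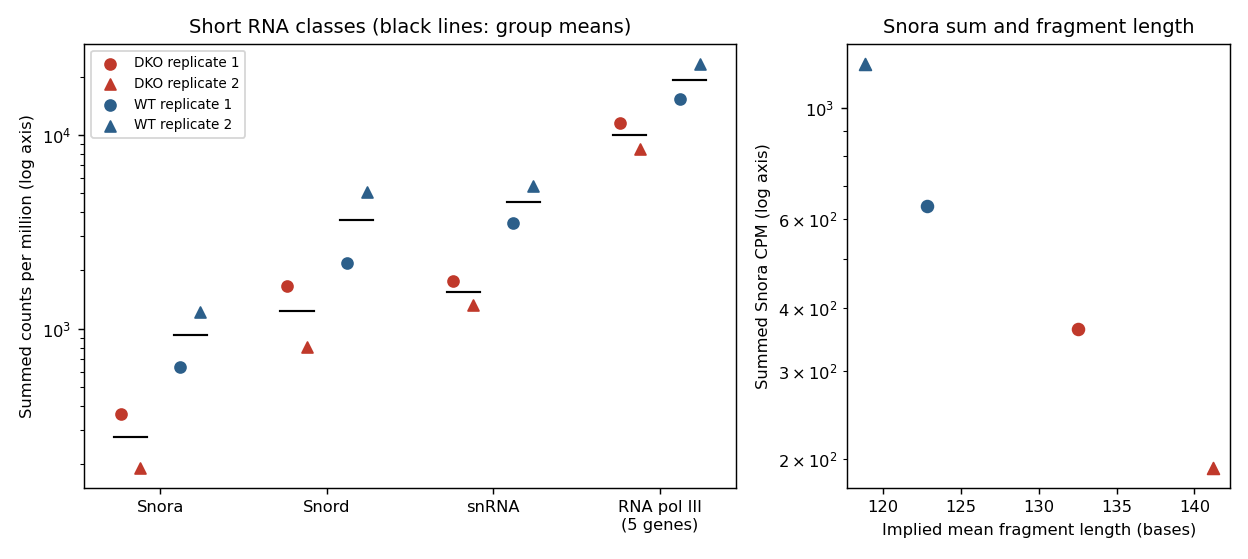
Left, summed CPM (log axis) of Snora genes, Snord genes, snRNA genes and 5 RNA polymerase III transcripts in each library, with DKO left of WT and black lines at the group means; in all 4 classes both DKO libraries lie below both WT libraries. Right, the Snora sum (log axis) against the implied mean fragment length in bases, which runs from 118.8 bases in WT replicate 2, with the highest sum of 1220 CPM, to 141.2 bases in DKO replicate 2, with the lowest sum of 192.5 CPM.

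Across the members the difference was broad in direction and small in the number of genes past the test. Of the 34 tested Snora genes, 26 had both DKO libraries below both WT libraries, an order shown by 18.8% of all 12863 genes tested, and 0 had both DKO libraries above, an order shown by 19.8% of all genes tested. The log2 fold change of DKO over WT was negative for 33 of the 34, with a median of -1.55 against -0.01 over all genes tested. By edgeR's quasi-likelihood F test, Benjamini-Hochberg adjusted over all genes tested, 1 Snora gene fell (0.07% of all genes tested were called lower) and 0 rose (0.0544% were called higher). At an unadjusted p under 0.05, 16 were lower and 0 higher, where 4.35% of all genes were lower. DESeq2 called 9 lower, where it called 1.03% of all genes lower, and 0 higher. The median was -0.81 without WT replicate 2 and between -1.21 and -2.12 without 1 of the other libraries. Calls of lower genes numbered 10 without WT replicate 1 (0.938% of all genes tested in that fit), 4 without DKO replicate 1 (0.26%), 3 without DKO replicate 2 (0.205%) and 1 without WT replicate 2 (0.348%). Scaled to the RNA polymerase III transcripts, 30 log2 fold changes were negative, and 15 genes had both DKO libraries below both WT libraries, against 1.90% of all genes tested.

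The 4 libraries fell in the same order in most members. From low to high it ran DKO replicate 2, DKO replicate 1, WT replicate 1, WT replicate 2 in 22 of the 34 tested genes, an order held by 6.55% of all genes tested. WT replicate 2 exceeded WT replicate 1 in 32 genes, and DKO replicate 1 exceeded DKO replicate 2 in 32 genes. The median ratio, over the 33 genes with counts in both libraries, was 2.11 for WT replicate 2 over WT replicate 1 and 1.97 for DKO replicate 1 over DKO replicate 2. Over all genes tested the corresponding medians were 1.01 and 0.998. In 8 genes DKO replicate 1 lay above WT replicate 1, and those are the 8 members in which the groups overlapped.

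**Figure D2:**
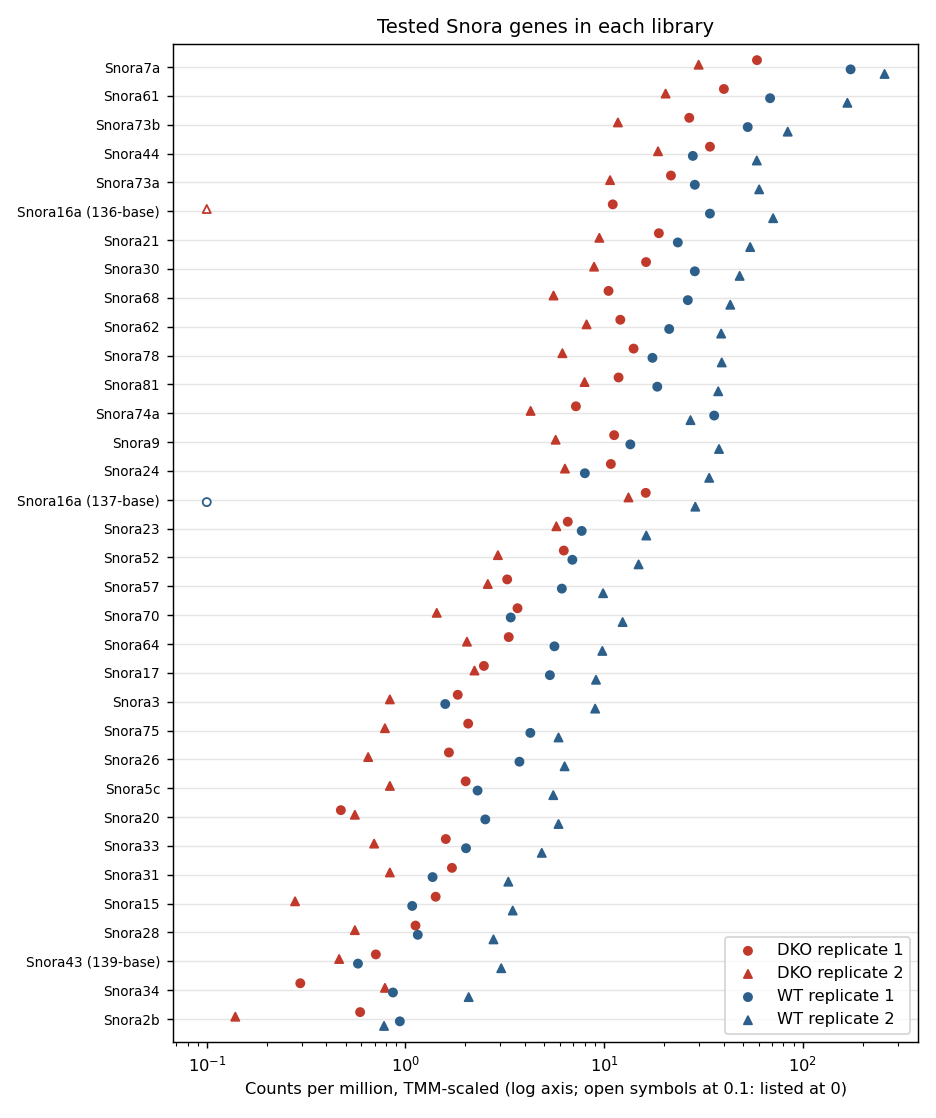
TMM-scaled CPM (log axis) of each of the 34 tested Snora genes in the 4 libraries, ordered by mean CPM, with DKO in red above WT in blue, circles for replicate 1 and triangles for replicate 2, and open symbols at 0.1 for a gene listed at 0. For 26 of the 34 genes both red symbols lie left of both blue ones, and for 32 genes the WT triangle lies right of the WT circle.

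Snora74a was the one member that passed the test. It is an RNA of 196 bases on chromosome 18 (ENSMUSG00000065649) whose human counterpart directs pseudouridylation of large subunit rRNA. Its estimated counts were 121.5 and 92.0 in DKO against 497.5 and 314.5 in WT. The 2 DKO values, 7.22 and 4.27 CPM, lay far below the WT values of 35.8 and 27.2 CPM, and it was among the 2 tested genes in which WT replicate 1 exceeded WT replicate 2. The mean was 5.74 ± 2.09 CPM in DKO and 31.5 ± 6.09 CPM in WT (SD, n = 2 each). Its log2 fold change was -2.47 (SE 0.27, adjusted p = 0.0309 by edgeR's quasi-likelihood F test, Benjamini-Hochberg adjusted). On deposited TPM with limma it was -1.90 (adjusted p = 0.197, pseudocount 0.5) and -1.43 (adjusted p = 0.188, pseudocount 5), which ends the call. Every other setting with all 4 libraries kept the call, with an adjusted p of 1.22e-10 by DESeq2 and 0.0459 by edgeR with the effective-length offset. With 1 library left out, the log2 fold change of Snora74a ran from -2.87 to -2.10. Of its 31-base words, 39.8% also occur in a transcript annotated as a miRNA, so its counts are uncertain.

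Among members in ribosomal protein genes, Snora7a had the highest level of all Snora RNAs per length, with a mean of 100.8 TPM in DKO and 337.8 TPM in WT. Human SNORA7 RNAs guide modification of large subunit rRNA. Snora7a had 58.9 and 29.9 CPM in DKO against 174 and 258 CPM in WT, which did not overlap. Its log2 fold change was -2.29 (SE 0.43), and its edgeR adjusted p was 0.3327. DESeq2 called it (adjusted p = 0.00486), as did edgeR with total counts, with RNA polymerase III scaling, with no filter on low counts and with either DKO library left out.

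Snora21, in Rpl23, whose human counterpart guides modification of large subunit rRNA, had 18.9 and 9.46 CPM in DKO against 23.5 and 54.4 CPM in WT. In Snora21 DKO replicate 1 and WT replicate 1 were close, and its log2 fold change of -1.46 (SE 0.66) did not pass the test. Snora52, in Rplp2, had 6.27 and 2.92 CPM in DKO against 6.92 and 14.9 CPM in WT, a log2 fold change of -1.25 (SE 0.52). DKO replicate 1 and WT replicate 1 nearly met in Snora52, without overlap. Without WT replicate 2 the log2 fold change was -0.73 for Snora21 and -0.59 for Snora52. All 9 tested members with a ribosomal protein host had a negative log2 fold change, from -2.29 to -1.25, with a median of -1.59. In 7 of the 9 both DKO libraries lay below both WT libraries, an order shown by 18.8% of all genes tested.

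Members in non-coding hosts included the Snhg12 cluster. Snora61, after Snora7a the member with the next-highest mean CPM, had 40.1 and 20.4 CPM in DKO against 68.5 and 168 CPM in WT. The groups did not overlap, but WT replicate 2 was 2.45 times WT replicate 1, and the log2 fold change of -1.97 (SE 0.72) had an edgeR adjusted p of 0.665. Snora44, whose human counterpart guides modification of small subunit rRNA, had 34.1 and 18.7 CPM in DKO against 28.0 and 58.7 CPM in WT. DKO replicate 1 lay above WT replicate 1, and the log2 fold change was -0.72 (SE 0.56), or 0.25 when scaled to the RNA polymerase III transcripts. Without WT replicate 2 it was -0.07 for Snora44 and -1.17 for Snora61.

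The annotations of Snora16a show how reads were divided between near-identical transcripts. The 136-base annotation lies wholly inside the 137-base one. The 136-base annotation had 186.8 and 0 estimated counts in DKO against 473 and 818.3 in WT, while the 137-base annotation had 274.2 and 286 in DKO against fewer than 1 and 331.7 in WT. Taken alone they gave log2 fold changes of -3.30 (SE 1.98) and 0.06 (SE 2.07), the lowest and the highest of all tested members. Summed over the locus, counts were 461 and 286 in DKO against 473 and 1150 in WT, or 27.3 and 13.3 CPM against 34.1 and 99.7 CPM. The locus thus showed the order of the other members, with a log2 fold change of -1.73 (SE 0.80, edgeR adjusted p = 0.716).

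The Snora73 RNAs in Snhg3 act, in human, in cleavage of the rRNA precursor rather than in pseudouridylation. Snora73b had 26.9 and 11.7 CPM in DKO against 52.9 and 84.0 CPM in WT. Snora73a had 21.7 and 10.7 CPM in DKO against 28.6 and 60.4 CPM in WT. Neither pair of groups overlapped. The log2 fold changes were -1.83 (SE 0.56, edgeR adjusted p = 0.603) for Snora73b and -1.46 (SE 0.62, edgeR adjusted p = 0.697) for Snora73a. The fold change of Snora73a was -0.81 without WT replicate 2, and Snora73b passed the edgeR test without DKO replicate 1. The 2 RNAs share many of their 31-base words, so the split of reads between them is uncertain.

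Snora68 had 10.5 and 5.57 CPM in DKO against 26.4 and 43.2 CPM in WT. Both WT values were higher than both DKO values, and the log2 fold change was -2.12 (SE 0.41, edgeR adjusted p = 0.260). DESeq2 called it (adjusted p = 6e-06), as did edgeR with total counts, with no filter on low counts and with either DKO library left out. Snora26, in the non-coding Dancr, had 1.66 and 0.649 CPM in DKO against 3.75 and 6.33 CPM in WT. Its groups did not overlap, and its log2 fold change was -2.14 (SE 0.53, edgeR adjusted p = 0.248). DESeq2 called it (adjusted p = 0.0496), as did edgeR with no filter on low counts and with a replicate block. All of its 31-base words also occur in other transcripts, Dancr among them. Dancr itself had a log2 fold change of -1.85 (SE 0.40), so reads of the snoRNA and its host cannot be told apart. Snora30, in Gm42715, had 16.3 and 8.91 CPM in DKO against 28.6 and 48.1 CPM in WT. Its log2 fold change was -1.61 (SE 0.42, edgeR adjusted p = 0.4455). DESeq2 called Snora30 (adjusted p = 0.00122), as did edgeR with total counts and with no filter on low counts. Snora23, in the importin gene Ipo7, shares none of its 31-base words with another transcript in the files. It had 6.57 and 5.75 CPM in DKO against 7.72 and 16.3 CPM in WT, so the DKO libraries were close together and WT replicate 2 stood apart. Its log2 fold change was -0.96 (SE 0.35, edgeR adjusted p = 0.522), or 0.05 when scaled to the RNA polymerase III transcripts and -0.31 without WT replicate 2. Snora20, in the chaperonin gene Tcp1, was chosen after its values were seen. It had 8 and 12 estimated counts in DKO against 35 and 68 in WT, with a log2 fold change of -3.00 (SE 0.59, edgeR adjusted p = 0.139).

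The other 20 tested members, Snora20 included, had mean levels of 0.612 to 20.1 CPM and log2 fold changes from -3.00 to -0.87, with a median of -1.52. In 14 of the 20 both DKO libraries lay below both WT libraries, as in 18.8% of all genes tested, and 9 had an unadjusted p under 0.05 and a lower level in DKO (4.35% of all genes). None passed the edgeR test after Benjamini-Hochberg adjustment, while DESeq2 called Snora17, Snora20, Snora62 and Snora81 lower (1.03% of all genes). A few were picked after their values were seen, to show their spread. Snora62, in Rpsa, whose human counterpart guides modification of large subunit rRNA, had 12.1 and 8.16 CPM in DKO against 21.3 and 38.9 CPM in WT. Its log2 fold change was -1.57 (SE 0.35, edgeR adjusted p = 0.292). Its groups did not overlap.

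Snora57, for which no host is annotated, had 3.25 and 2.60 CPM in DKO against 6.13 and 9.89 CPM in WT, a log2 fold change of -1.45 (SE 0.32, edgeR adjusted p = 0.190). Snora17, also without an annotated host, had 2.48 and 2.23 CPM in DKO against 5.34 and 9.11 CPM in WT, a log2 fold change of -1.61 (SE 0.35, edgeR adjusted p = 0.178). In both, every WT value was above every DKO value. Snora81, in the translation factor gene Eif4a2, had 11.8 and 7.98 CPM in DKO against 18.5 and 37.6 CPM in WT, without overlap. Snora24, in Snhg8, whose human counterpart guides modification of small subunit rRNA, had 10.8 and 6.36 CPM in DKO against 8.01 and 33.8 CPM in WT. Here the groups overlapped, only WT replicate 2 lay above both DKO libraries, and the log2 fold change was -1.28 (SE 0.94).

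The 8 members that were not tested had few counts. Snora35, which lies in the serotonin receptor gene Htr2c, and the 127-base annotation of Snora43 had 0 counts in every library, and Htr2c itself had 0. They were the only members with identical counts. Snora41, Snora36b, Snora65, Snora47, Snora19 and Snora69 had at most 26 counts in any library. The highest of these, in Snora69, stood at 7 and 5 counts in DKO against 6 and 26 in WT, and differences in these genes were not detectable at this depth.

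The fold change of the tested Snora genes showed no trend with RNA length. The 6 tested members of 121 to 129 bases had a median log2 fold change of -1.54, the next 11 by length, from 130 bases, -1.61, the following 12, from 136 bases, -1.47, and the 5 of 178 to 205 bases -1.50. In these classes, 5, 7, 9 and 5 members had both DKO libraries below both WT libraries, an order shown by 18.8% of all genes tested. Over the 34 members, length and log2 fold change had Pearson's r of -0.02 and Spearman's rho of 0.04, given as a description over genes that share libraries. The summed RNAs of 150 bases or more had 74.1 and 40.4 CPM in DKO against 144 and 226 CPM in WT, a log2 difference of -1.72, and the shorter ones had 289.7 and 152 CPM in DKO against 495 and 994 CPM in WT, a difference of -1.74. The log2 ratio of long to short differed by 0.02 between the genotypes, with overlap and an exact two-sided permutation p of 1. Without WT replicate 2 the medians, from the shortest class to the longest, were -0.80, -1.07, -0.71 and -0.90. GC content and log2 fold change had r of -0.02.

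**Figure D3:**
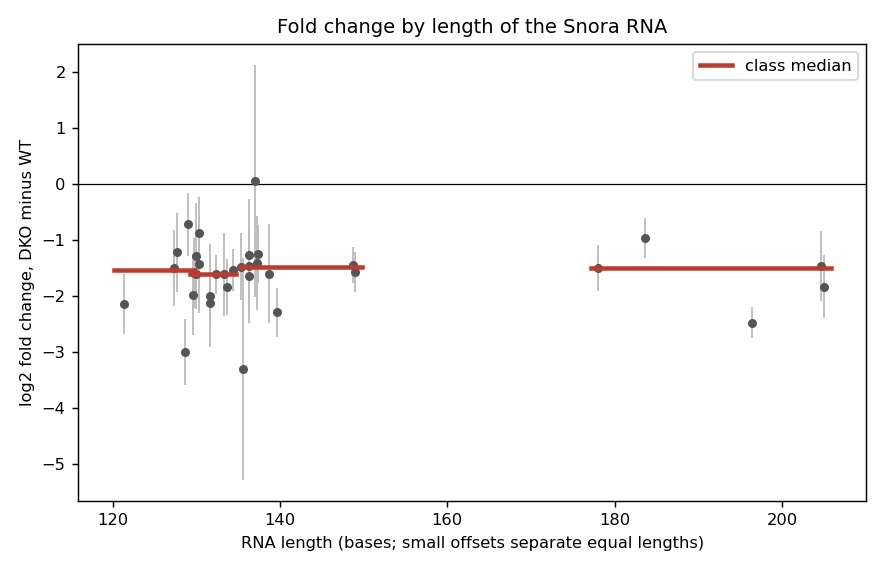
Log2 fold change of DKO over WT (vertical axis, with SE bars) of the 34 tested Snora genes against RNA length in bases, with red lines at the medians of 4 length classes. The class medians lie between -1.61 and -1.47, and the point above 0 with the wide bar is the 137-base annotation of Snora16a.

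Most host genes had smaller log2 differences than the snoRNAs inside them. Of the 34 tested members, 31 lie in 26 annotated hosts and 3 in none, and the host of Snora74a, AC121821.1, has no value here. None of the 25 tested hosts passed edgeR's quasi-likelihood F test, Benjamini-Hochberg adjusted, 5 were lower (4.35% of all genes tested) and 0 higher at an unadjusted p under 0.05, and DESeq2 called 2 lower (1.03% of all genes). The hosts had a median log2 fold change of -0.43, and in 15 of the 25 both DKO libraries lay below both WT libraries, as in 18.8% of all genes tested. Members had the lower log2 fold change of the 2 in 26 of 30 pairs with a tested host, and the median of snoRNA minus host was -1.04. That median was -0.27 without WT replicate 2, -0.68 without DKO replicate 2, -1.34 without DKO replicate 1 and -1.56 without WT replicate 1.

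By type of host, the median log2 fold change was -1.59 for 9 snoRNAs and -0.43 for their ribosomal protein hosts, with 9 of 9 snoRNAs lower than their host. It was -1.43 for 10 snoRNAs and -0.26 for 9 other protein-coding hosts, with 10 of 10 lower. It was -1.55 for 12 snoRNAs and -1.07 for their hosts of a non-coding gene type, with 7 of 11 lower. The last group includes Cct6a, which this annotation does not class as protein-coding although the gene is known for a chaperonin subunit. Some host transcripts have exons that run over the snoRNA, and the split of reads between the 2 was not tested. Over transcripts without such exons Dancr (-1.85 over all transcripts) and Snhg3 (-2.07) have no value, so their pairs drop out. Those pairs had snoRNA minus host of -0.29 for Snora26, 0.61 for Snora73a and 0.24 for Snora73b. The other non-coding hosts had a median of -0.66 over transcripts without such exons, a smaller set of hosts than that behind -1.07. The snoRNA was lower in 27 of the 27 pairs of all types that remained, 4 of which have Snhg12 as host. Among these, snoRNA minus host was 1.49 over all transcripts and -0.21 without such exons for the 137-base Snora16a annotation. It was 0.72 and -0.98 for Snora44, so both turned with the choice of Snhg12 transcripts. Snhg12 had -1.44 over all transcripts and 0.26 (SE 0.49) over those without such exons. Over the members, snoRNA and host log2 fold changes had r of 0.02 (n = 30 pairs) and, without such exons, -0.03 (n = 27 pairs).

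The ratio of snoRNA to host within a library was taken over host transcripts without exons over the snoRNA. Not every named member has such a ratio. In most that do, both DKO libraries lay below both WT libraries. The log2 ratio of Snora7a to Rpl32 was -2.99 and -3.77 in DKO against -1.42 and -1.46 in WT, a difference of -1.94 (pooled SD 0.392). The ratio of Snora61 to Snhg12 was 2.68 and 2.93 in DKO against 4.76 and 5.07 in WT, a difference of -2.11 (pooled SD 0.202). In both, the gap between the genotypes was larger than the gap within either. The difference was -0.99 for Snora21 to Rpl23, -0.92 for Snora23 to Ipo7, -0.89 for Snora44 to Snhg12 and -0.87 for Snora52 to Rplp2, all without overlap. The exact two-sided permutation p was 0.3333 for each of these 6 ratios, which is the smallest possible. Over all Snhg12 transcripts, the fitted log2 fold change of snoRNA minus host was -0.53 for Snora61 and 0.72 for Snora44, the opposite direction. Snhg12 transcripts without exons over the snoRNA had 6.271 and 2.691 CPM in DKO against 2.525 and 4.945 CPM in WT. All Snhg12 transcripts had 39.04 and 21.85 CPM in DKO against 57.19 and 107.3 CPM in WT. The ratios of Snora61 and Snora44 thus rest on a small part of the host. All sequence words of Snora7a, Snora61, Snora44 and Snora52 also occur in other transcripts, their hosts among them, so the split of reads is uncertain. The ratio of Snora30 to Gm42715 overlapped, with 0.39 and -0.43 in DKO against -0.03 and 2.04 in WT.

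**Figure D4:**
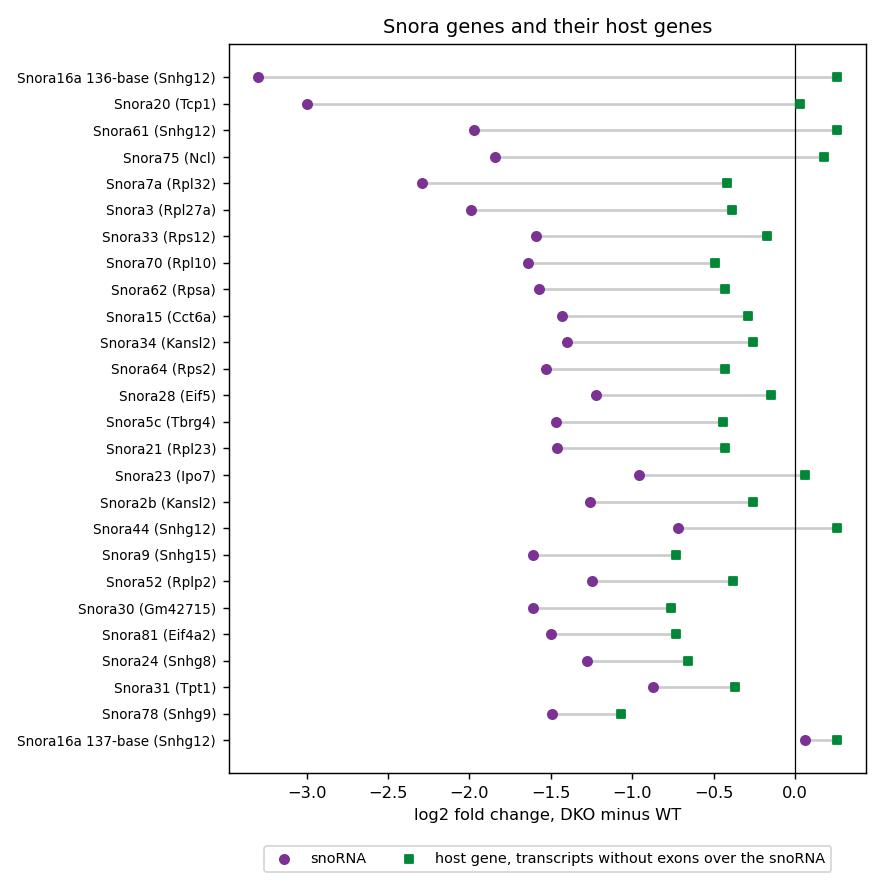
Log2 fold change of DKO over WT for 26 tested Snora genes (circles) and for host transcripts whose exons do not run over the snoRNA (squares), 1 pair a row with the host in brackets. The circle lies left of the square in 26 of 26 rows, 4 of which have Snhg12 as host.

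The proteins that carry H/ACA RNAs did not pass the test in either direction. Dkc1, the pseudouridine synthase dyskerin, had 30.3 and 25.8 CPM in DKO against 25.6 and 30.3 CPM in WT, a log2 fold change of 0.01 (SE 0.16). Gar1 had a log2 fold change of -0.04 (SE 0.21), Nhp2 of -0.06 (SE 0.25) and Nop10 of 0.20 (SE 0.26). Their groups overlapped in all 4 cases. Of 12 tested assembly factors 0 were called, and DESeq2 called 0. At an unadjusted p under 0.05, 1 was higher and 0 lower, where 492 of all 12863 genes tested were higher and 560 lower. The 1 was Naf1, the assembly chaperone of the RNP, named after its value was seen, with 6.92 and 7.05 CPM in DKO against 4.62 and 4.16 CPM in WT (log2 fold change 0.67, edgeR adjusted p = 0.528).

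Enzymes that trim or tail the 3′ end of these RNAs gave 0 calls among 10 tested genes, with 0 at an unadjusted p under 0.05 and 0 by DESeq2. Parn, a deadenylase that matures H/ACA RNAs, had a log2 fold change of -0.05 (SE 0.14) and Tent4b, a polymerase that adds short adenine tails, -0.06 (SE 0.14). Of 7 genes of intron debranching and the link to splicing 0 were called by either tool. Dbr1, the lariat debranching enzyme, named after its value was seen, was the 1 at an unadjusted p under 0.05. It was higher in DKO, as were 492 of all 12863 genes tested at that p. Dbr1 had 13.6 and 10.0 CPM in DKO against 9.09 and 6.68 CPM in WT (log2 fold change 0.57, edgeR adjusted p = 0.606).

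The telomerase RNA Terc, which has an H/ACA domain, was listed with the Cajal body Scarna RNAs, not all of which are box H/ACA RNAs. The 9 tested genes of this mixed list had a median log2 fold change of -1.18. In 7 of the 9 both DKO libraries lay below both WT libraries, as in 18.8% of all genes tested. None passed the edgeR test, 6 were lower (4.35% of all genes tested) and 0 higher at an unadjusted p under 0.05, and DESeq2 called 2 lower (1.03% of all genes). They summed to 213 and 151 CPM in DKO against 264 and 394 CPM in WT. Terc itself had 44 and 18 counts in DKO against 54 and 27 in WT, with overlap.

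Other short RNA classes differed in the same direction. The 59 tested Snord genes, which encode the box C/D snoRNAs that guide methylation of rRNA, had a median log2 fold change of -1.82. In 44 of them both DKO libraries lay below both WT libraries, an order shown by 18.8% of all genes tested. The 61 tested snRNA genes, counting identical ones once, had a median of -1.77, with 49 in that order. By RNA length, the Snord median was -1.96 for 28 genes of 64 to 79 bases and -1.88 for 22 of 80 to 99 bases. For the 9 Snord genes of 104 to 238 bases it was -1.07, a difference by length that the Snora classes did not show. The edgeR test called 0 Snord genes and 1 snRNA gene lower (0.07% of all genes tested). At an unadjusted p under 0.05, 13 Snord and 40 snRNA genes were lower (4.35% of all genes tested). The summed log2 difference was -1.53 for Snord genes, -1.52 for snRNA genes, -0.93 for the 5 RNA polymerase III transcripts and -0.01 for protein-coding genes, against -1.74 for Snora genes. The log2 ratio of Snora to Snord sums was -2.18 and -2.07 in DKO against -1.77 and -2.06 in WT. The groups came within 0.01 of each other, and the difference of -0.21 (pooled SD 0.156) had an exact two-sided permutation p of 0.3333. It ranged from -0.06 without WT replicate 1 to -0.35 without WT replicate 2. The ratio of Snora to snRNA sums overlapped, with a difference of -0.22 (pooled SD 0.301, exact two-sided permutation p = 0.667) that was 0.04 without DKO replicate 2. Against the RNA polymerase III transcripts the ratio differed by -0.80 (pooled SD 0.290) and against protein-coding genes by -1.72 (pooled SD 0.604), each without overlap and with an exact two-sided permutation p of 0.3333.

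Sharing of sequence limits the assignment of reads. Of the 34 tested members, 17 share every 31-base word with other transcripts in the files, such as host transcripts or Gm genes annotated as snoRNAs, 11 share some and 6 share none. The 6 that share none, which are Snora23, Snora62, Snora31, Snora2b, Snora20 and Snora78, had log2 fold changes from -3.00 to -0.87 with a median of -1.38. In 5 of the 6 both DKO libraries lay below both WT libraries, an order shown by 18.8% of all genes tested. An exon of another transcript on the same strand overlaps 24 of the tested members. The strand setting of the quantification is not given in the sources used here, so reads of antisense transcripts cannot be told apart.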

How the data were processed

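The data are 4 libraries of rRNA-depleted total RNA made with a stranded SMARTer Pico kit for total RNA, per the labels' protocols. Abundances were estimated by the authors with kallisto, and mm10 and GRCm38 are named as builds, per the submitters' processing notes; versions, annotation release and strand setting are unstated there. The deposited estimated counts per transcript are not scaled, per the file headers. The deposited TPM values are scaled for effective length and to 1 sum in each library, per the file headers. Effective lengths in bases were deposited for every transcript.

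Of 126782 transcripts, 125182 (98.7%) were joined to GENCODE M21 on GRCm38; those without a gene held 0.822 to 0.852% of counts and were left out. Estimated counts were summed per gene and rounded. Genes were filtered (filterByExpr), scaled (TMM) and tested with edgeR 4.0.16 in R 4.3.3 (quasi-likelihood, robust, Benjamini-Hochberg at 0.05), with limma 3.58.1 on log2(TPM + 0.5 or 5) and DESeq2 1.42.0 as alternatives. The common biological coefficient of variation was 0.2195. SE was taken as log2 fold change over the root of F. Tested on simulated data for 12293 genes, the edgeR step recovered 36 of 113 genes simulated at a log2 change of 1 and 80 of 87 at 2, and called 24 of 12093 unchanged genes.

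A host is the smallest protein-coding or non-coding gene that contains the snoRNA on its strand. Named genes are those past the test, the 8 with the highest mean CPM, the 6 lowest and 4 highest log2 fold changes at a mean of at least 5 CPM, the shortest and longest, Snora73a, Snora73b and Snora74a, members of hosts with 3 or more, and the core proteins. Members and lists were chosen with earlier results of these data known. The floor of 3 counts covers counting error only. Alternatives were other scalings, filters, tests and units, leaving out each library, a replicate block, and reduced member sets. Values of 1 host gene and 1 marker gene are not reported here.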

Additional observations from a re-analysis of the deposited data

How the results depend on the processing

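The median log2 fold change of the tested Snora genes stayed negative under every alternative run. Lower calls, 1 as reported (0.07% of all genes), numbered 6 with total counts only (0.49%), 2 scaled to RNA polymerase III transcripts (0.171%), 9 with DESeq2 (1.03%), 16 of 40 with no filter (0.98%), 0 on TPM with either pseudocount, 0 among members without exon overlap and 0 among those without shared words (the last chosen after seeing the data), neither of which set holds Snora74a. Leaving out 1 library gave 1 to 10 lower and 0 to 1 higher calls. With total counts the median over all genes was 0.32 and that of Snora genes -1.21, or -1.53 relative to it, and the class of 150 bases or more had -1.16. Scaled to RNA polymerase III transcripts all genes had 0.90 and Snora genes -0.56, or -1.46 relative to it. There 15 members had both DKO libraries below both WT libraries, the length classes under 130, from 130 and from 150 bases had -0.58, -0.63 and -0.52, and Snora44 (0.25) and Snora23 (0.05) turned positive. On TPM with a pseudocount of 5 the median was -0.63. Leaving out 1 library gave medians of -1.07 to -2.15 for the class from 130 bases, -0.90 to -2.03 for 150 bases or more, and -0.27 to -1.56 for snoRNA minus host. It gave Snora to snRNA ratio differences of -0.48 to 0.04, and the 137-base Snora16a annotation ran from -0.97 without WT replicate 1 and -0.08 without DKO replicate 1 to 11.01 without WT replicate 2. Called host genes, 0 as reported, were 1 with total counts, where 63 of 12863 genes were called lower and 158 higher. DESeq2 called 2 hosts, both lower (1.03% of all genes). The cause of these shifts was not tested.

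With replicate number as a block, 6 Snora genes were called lower (0.7% of all genes) and the median was -1.50. Same-numbered libraries had correlated deviations of -0.316 over 12863 genes, so the numbers were not taken as pairs, which the labels do not settle. A crossed replicate block, chosen after seeing the data, called 22 (2.99% of all genes). Depth limits the 8 untested members, and with 2 libraries a group single values cannot pass an exact test.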
